A study of Homo sapiens with 12 samples.

Results

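TXNIP and the arrestin-domain genes ARRDC1, ARRDC2, ARRDC3 and ARRDC4 were followed across 11 RNA-seq libraries of K562, a human erythroleukemia cell line. The 5 genes were taken by symbol from the gene tables, which share 23153 genes, and all 5 were among the 11075 genes tested, for which the mean over libraries reached 1 FPKM (fragments mapped per kilobase of transcript, scaled to the library's mapped fragments). The study asked how cells respond to saturated fatty acids. Experiment 1 compared wild-type cells given palmitate, a saturated fatty acid, or palmitoleate, a monounsaturated one, with untreated wild-type cells. Experiment 2 held GPAT4 knockout cells with palmitate, wild-type cells with palmitate plus palmitoleate, wild-type cells with palmitate and untreated wild-type cells. Experiment 3 held RNF213 knockdown cells with and without palmitate beside wild-type cells with and without palmitate. GPAT4 is an enzyme of the endoplasmic reticulum that starts glycerolipid synthesis from acyl-CoA, and RNF213 is a large ubiquitin ligase. Palmitate was bound to albumin and given at 0.2 mM for 20 h per the labels, while legends deposited with experiments 2 and 3 state 16 h. These legends put palmitoleate in the mixture at 0.2 mM, and no dose is given for palmitoleate alone. Each library pooled the RNA of 3 biological replicates, so a group in an experiment is 1 library and the 3 experiments are the replicates for wild-type cells with and without palmitate. How many clones stood behind the knockout, and how the knockout and knockdown were made, is not given in the sources used here. Untreated GPAT4 knockout cells are labelled but were not analysed here, because no column of values carried that name.

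Arrestin-domain proteins of the alpha class share a fold with the visual and beta arrestins and act as adaptors, best known for bringing NEDD4-family ubiquitin ligases to membrane proteins through PPxY motifs. TXNIP binds thioredoxin and removes glucose transporters from the cell surface, and both TXNIP and ARRDC4 are known targets of the glucose-sensing transcription factors MLXIP (MondoA) and MLXIPL (ChREBP), which work with MLX at carbohydrate response elements. ARRDC3 is known for acting on integrin beta-4, and ARRDC1 for recruiting TSG101 of the ESCRT machinery to form vesicles at the plasma membrane.

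TXNIP and ARRDC4 carried the larger responses reported here, so their promoters are shown, from 250 bases before to 50 bases after the start, read from RefSeq on GRCh38.p14. The TXNIP window is chr1:145996530-145996829 on the minus strand, and the ARRDC4 window is chr15:97960453-97960752 on the plus strand. In TXNIP the capitals mark a pair of CACGNG boxes set 5 bases apart (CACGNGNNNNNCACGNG, the layout of a carbohydrate response element), and in ARRDC4 they mark a single CACGTG box. Both strands were searched.
TXNIP: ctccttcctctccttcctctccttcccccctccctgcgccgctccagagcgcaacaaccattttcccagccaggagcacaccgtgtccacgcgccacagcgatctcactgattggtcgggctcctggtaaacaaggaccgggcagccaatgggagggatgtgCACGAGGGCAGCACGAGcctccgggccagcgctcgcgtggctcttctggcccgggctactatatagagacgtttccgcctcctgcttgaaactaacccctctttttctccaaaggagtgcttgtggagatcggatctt
ARRDC4: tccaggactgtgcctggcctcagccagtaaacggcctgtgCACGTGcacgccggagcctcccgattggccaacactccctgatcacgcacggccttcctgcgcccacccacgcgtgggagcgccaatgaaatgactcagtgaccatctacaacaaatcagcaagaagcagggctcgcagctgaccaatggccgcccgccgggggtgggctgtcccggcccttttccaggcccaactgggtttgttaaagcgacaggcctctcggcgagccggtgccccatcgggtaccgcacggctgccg
The pair in TXNIP lay at bases -88 to -72 from the start and read CACGAGGGCAGCACGAG. This looser pattern was chosen after the sequences were seen, and it occurred in 20 of 35116 RefSeq promoters of the same length (0.057%). The box in ARRDC4 lay at bases -210 to -205, and CACGTG occurred in 7.26% of promoters. The strict pair, CACGTG at both positions with the same gap, occurred in 2 promoters (0.0057%), neither of them of the 5 genes. CCAAT, the NF-Y box, was found in TXNIP at bases -140 to -136 on the reverse strand and -105 to -101, and in ARRDC4 at -187 to -183 on the reverse strand, -128 to -124 and -67 to -63. All 5 genes had it in at least 1 of their windows, in ARRDC1 at -80 to -76 on the reverse strand, in ARRDC3 at -241 to -237, and in ARRDC2 at -93 to -89 on the reverse strand of the window at its other start. It occurred in 34.6% of all promoters. That share is per window, while TXNIP, ARRDC2 and ARRDC3 had 2 windows each, 1 of them without a match. The windows of ARRDC1, ARRDC2 and ARRDC3 held neither CACGTG nor the looser pair. A match describes letters and is not evidence of binding.

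The libraries summed to between 612355 and 821188 FPKM, with 10495 to 11108 genes at 1 FPKM or more. Read totals are not in the tables, and the depth relative to the untreated library of the same table, read from the steps between low values, lay between 0.889 and 1.13. The 8 erythroid markers of K562 summed to between 5060 and 17900 FPKM. In the wild-type palmitate test described below (limma adjusted p under 0.05), 4 of these 8 were called lower and 0 higher. Among all genes tested, 3.84% were called lower and 6.59% higher. Of 3 markers for each other cell type, those of B cells summed to between 0.166 and 0.85 FPKM, of endothelial cells to between 0.344 and 0.921 and of fibroblasts to between 0.0777 and 3.01. The sums for T cells (12.0 to 39.6 FPKM), monocytes (19.9 to 57.8) and epithelial cells (13.6 to 62.3) came almost wholly from CD3D, LYZ and EPCAM, with the other 2 markers of each under 1 FPKM in every library. The targeted genes were lower but present. GPAT4 (listed as AGPAT6) was at 8.77 FPKM in GPAT4 knockout cells with palmitate, against 20.0 in wild-type cells with palmitate. RNF213 was at 1.54 FPKM in knockdown cells with palmitate against 3.08 in wild-type cells with palmitate, and at 1.39 in untreated knockdown cells against 1.96 in untreated wild-type cells.

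TXNIP was the most abundant of the 5 genes in all 11 libraries. Because FPKM is a level per transcript length, it can be set side by side between genes within a library, and TXNIP made up between 67.3% and 79.6% of the summed FPKM of the 5. ARRDC4 was the second most abundant in each of the 3 wild-type palmitate libraries, where it held 11.3%, 13.2% and 10.6% of the sum in experiments 1, 2 and 3, against 5.49%, 5.86% and 5.09% in untreated wild-type cells. In untreated wild-type cells 1, 3 and 2 of the other ARRDC genes lay above it. It was the least abundant of the 5 in GPAT4 knockout cells with palmitate, in wild-type cells given both acids and in untreated RNF213 knockdown cells. Among all genes, TXNIP ranked 371, 400 and 485 by FPKM in wild-type palmitate cells, against 527, 1181 and 1024 in untreated wild-type cells. ARRDC4 ranked 2191, 2301 and 3148 with palmitate and 5467, 6922 and 7231 without.

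**Figure D1:**
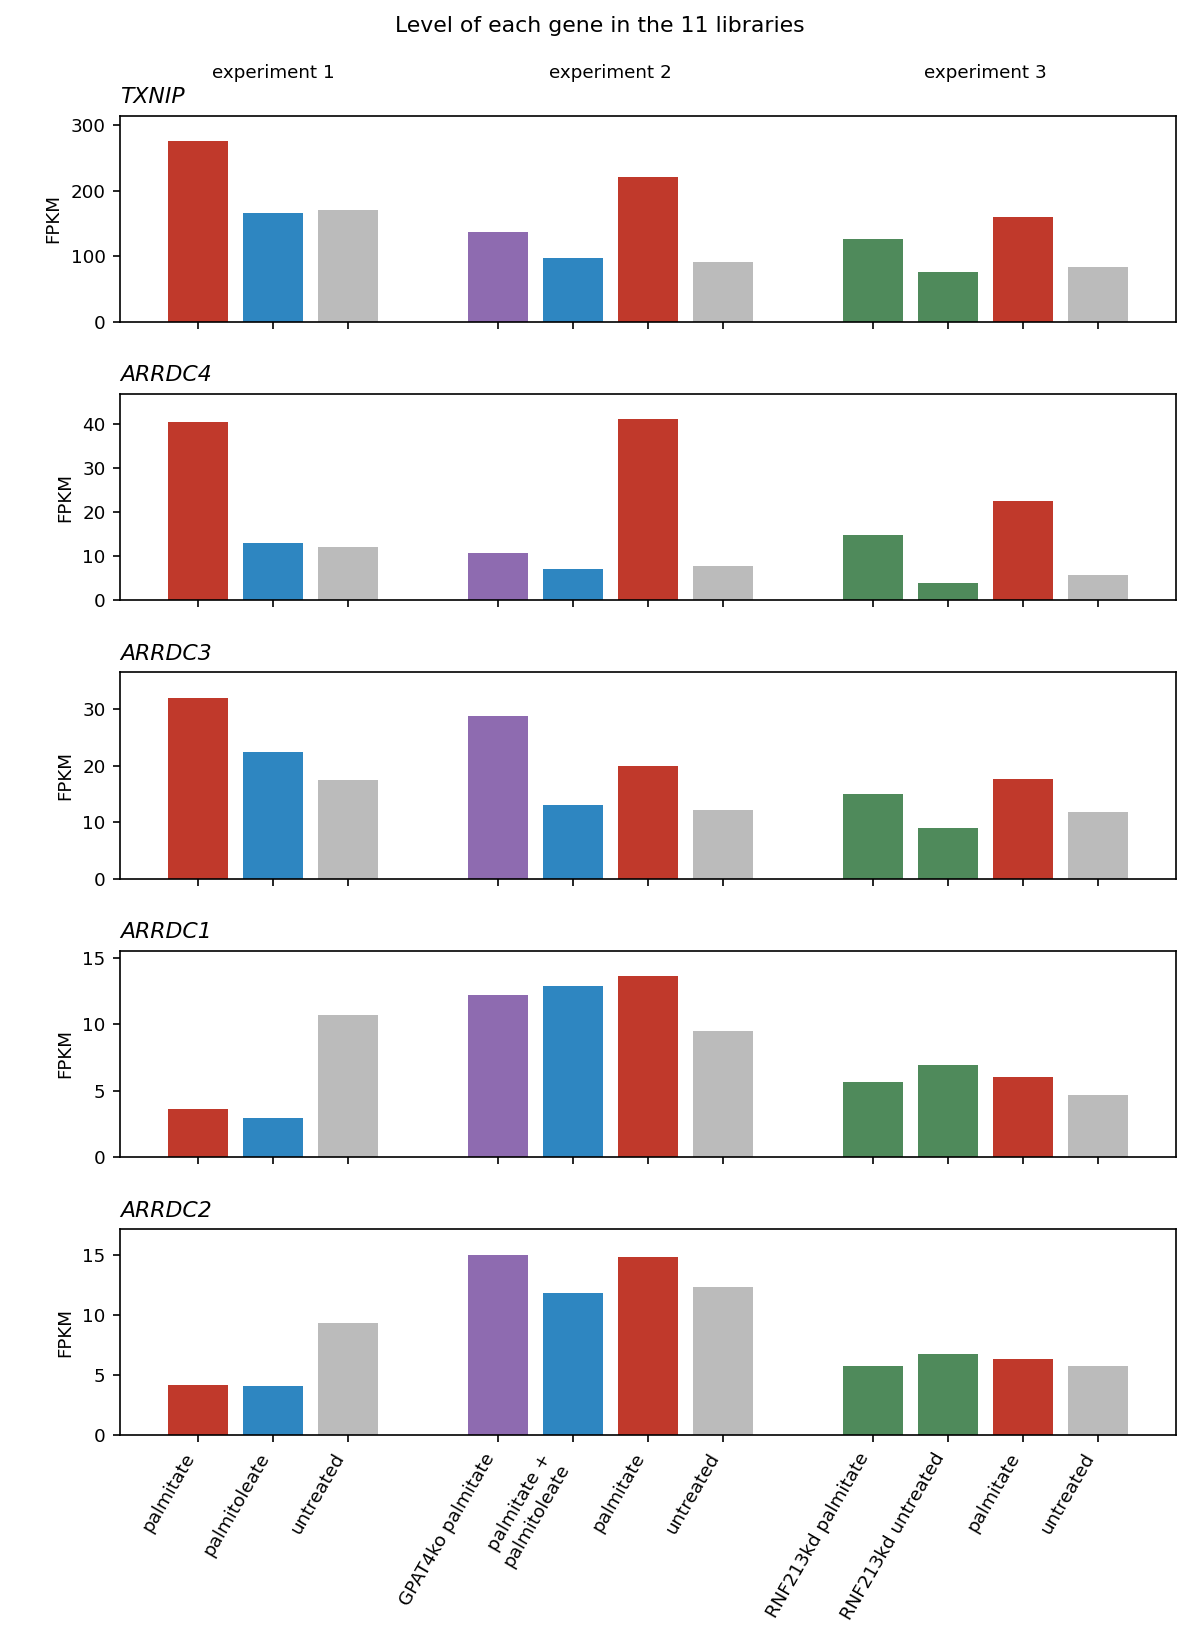
FPKM of the 5 genes in the 11 libraries, 1 bar per library, in a panel for each gene with the libraries of each experiment together and untreated wild-type cells at the right of each experiment. Bars start at 0, each library is 1 pool and there are no error bars. Red bars are wild-type cells with palmitate, blue bars contain palmitoleate, purple is GPAT4 knockout, green RNF213 knockdown and grey untreated wild type. TXNIP and ARRDC4 stand highest in the wild-type palmitate library of each experiment, with ARRDC4 at 40.4, 41.1 and 22.5 FPKM there and at or under 14.8 FPKM in all other libraries.

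TXNIP and ARRDC4 rose with palmitate in wild-type cells, ARRDC3 was higher in all 3 experiments without passing the test, and ARRDC1 and ARRDC2 showed no common direction. The comparison used 3 pairs of libraries, each a palmitate library and the untreated library of the same experiment, and limma on log2(FPKM + 1) ratios, with Benjamini-Hochberg adjustment over 11075 genes and a threshold of 0.05. Of the 5 genes 2 were called higher and 0 lower, against 6.59% called higher, 3.84% called lower and 10.4% called in either direction among all genes tested. At an unadjusted p under 0.05 the count was 3 higher, with ARRDC3 added, and 0 lower, against 15.4% higher and 17.2% lower among all genes tested. The 3 genes higher in all 3 experiments compare with 25.9% of the genes tested, and none of the 5 was lower in all 3, as 29.6% of the genes tested were. The median over all genes tested was -0.06 and the median over the 5 genes was 0.68 on the log2 scale. In pooled RNA, a change in some of the cells and a smaller change in all of them cannot be told apart.

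ARRDC4, an adaptor closely related to TXNIP and like it a known regulator of glucose uptake, had the largest response of the 5. It was at 40.4, 41.1 and 22.5 FPKM in wild-type palmitate cells of experiments 1, 2 and 3, against 12.1, 7.79 and 5.68 FPKM in untreated wild-type cells. Every palmitate library lay above every untreated one, as was the case for 15.1% of the genes tested. The means were 34.7 ± 10.5 FPKM with palmitate and 8.52 ± 3.27 FPKM without (SD, n = 3 experiments each). The ratios within experiments were 3.34-fold, 5.27-fold and 3.96-fold. The mean log2 ratio was 1.91 ± 0.22 (SE; 95% interval 1.37 to 2.45; limma with Benjamini-Hochberg adjustment, adjusted p = 0.0159), the 211th highest among the genes tested. ARRDC4 was still called without experiment 2 (1.74, limma adjusted p = 0.000868). In that fit limma took each gene's spread wholly from the trend over all genes. The p-value therefore does not measure the spread of ARRDC4 itself. ARRDC4 was not called without experiment 1 or experiment 3, at log2 ratios of 2.04 and 1.96 (limma adjusted p = 0.0525 and 0.131), where 0 of the genes tested passed.

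TXNIP, the thioredoxin-binding member, was at 276, 222 and 160 FPKM in wild-type palmitate cells of experiments 1, 2 and 3, against 171, 91.1 and 83.7 FPKM in untreated wild-type cells. The groups overlapped across experiments, since the palmitate library of experiment 3 lay below the untreated library of experiment 1, while palmitate was higher within each experiment. The means were 219 ± 58.1 FPKM with palmitate and 115 ± 48.4 FPKM without (SD, n = 3 experiments each). The within-experiment ratios were 1.62-fold, 2.43-fold and 1.91-fold. The mean log2 ratio was 0.96 ± 0.20 (SE; 95% interval 0.46 to 1.46; limma with Benjamini-Hochberg adjustment, adjusted p = 0.0434), the 855th highest among the genes tested. The call was lost on leaving out each experiment in turn (adjusted p = 0.0606, 0.152 and 0.207 without experiments 1, 2 and 3, at log2 ratios of 1.10, 0.81 and 0.98). Without experiment 1, and without experiment 3, none of the genes tested was called. The TXNIP call was also lost in the unpaired fit (adjusted p = 0.161), and both TXNIP and ARRDC4 had an adjusted p of 0.234 without the filter on low values.

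ARRDC3, the adaptor known from integrin beta-4, was at 32.0, 20.0 and 17.6 FPKM in wild-type palmitate cells, against 17.4, 12.1 and 11.9 FPKM in untreated wild-type cells, in experiments 1, 2 and 3. The lowest palmitate library was barely above the highest untreated one. The means were 23.2 ± 7.72 FPKM with palmitate and 13.8 ± 3.15 FPKM without (SD, n = 3 experiments each). The mean log2 ratio was 0.68 ± 0.20 (SE; 95% interval 0.20 to 1.17), the 1401st highest among the genes tested, and it did not pass the adjusted threshold (limma, adjusted p = 0.0769). With the trend of the ratios on GC content removed it was 0.59 and passed (limma, adjusted p = 0.0348).

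ARRDC1, the vesicle-forming member, was at 3.66, 13.6 and 6.07 FPKM in wild-type palmitate cells of experiments 1, 2 and 3, against 10.7, 9.51 and 4.68 FPKM in untreated wild-type cells. ARRDC2, an adaptor of the same class, was at 4.21, 14.9 and 6.34 FPKM with palmitate and at 9.36, 12.4 and 5.81 FPKM without. Both were lower with palmitate in experiment 1 and higher in experiments 2 and 3. The mean log2 ratio was -0.18 for ARRDC1 (95% interval -1.13 to 0.78; limma, adjusted p = 0.778) and -0.21 for ARRDC2 (95% interval -0.94 to 0.52; limma, adjusted p = 0.654). Without experiment 1 the ratios were 0.40 for ARRDC1 and 0.18 for ARRDC2, not past the threshold.

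Base composition was set beside the ratios. Over the genes tested, Spearman's rank correlation between the palmitate log2 ratio and the GC content of the longest transcript was -0.63 in experiment 1, -0.02 in experiment 2 and 0.15 in experiment 3, a description across genes that share their libraries. ARRDC1 has a GC content of 62.8% and ARRDC2 of 60.2%, at percentiles 93.5 and 87.4 of the genes tested, while TXNIP is at 43.7%, ARRDC4 at 43.4% and ARRDC3 at 37.2%. With the GC trend removed within each experiment, the mean log2 ratio was 0.14 for ARRDC1 and 0.04 for ARRDC2, and TXNIP stayed at 0.94 (limma, adjusted p = 0.0282). Whether base composition had a part in the split of ARRDC1 and ARRDC2 between experiments, or in the other ratios, was not tested.

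**Figure D2:**
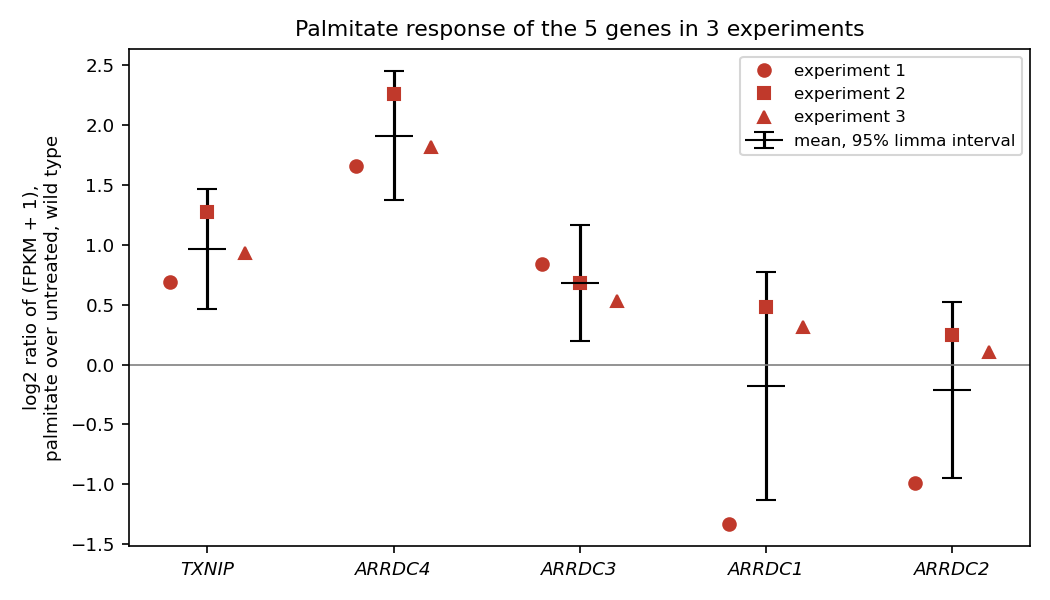
Log2 ratio of (FPKM + 1), palmitate over untreated wild-type cells, for the 5 genes, with 1 point per experiment and the limma mean with its 95% interval. ARRDC4 has all 3 points at 1.66 or above, TXNIP lies between 0.69 and 1.27, and ARRDC1 and ARRDC2 lie on both sides of 0.

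The remaining comparisons each set 1 library against 1 other in the same table and have no replicate check. Their intervals assume that such a ratio varies as the wild-type palmitate ratio of that gene did between experiments, so they have no p-values, and a call here means a difference of at least 2-fold on the log2(FPKM + 1) scale.

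In cells given palmitate and palmitoleate together, ARRDC4 and TXNIP lay near their untreated levels. ARRDC4 was at 7.14 FPKM with both acids, against 41.1 with palmitate alone and 7.79 in untreated cells. The log2 ratio of both acids to palmitate was -2.37 (95% interval -3.30 to -1.44), and of both acids to untreated cells -0.11 (95% interval -1.04 to 0.82). TXNIP was at 96.7 FPKM with both acids, against 222 with palmitate and 91.1 in untreated cells. Its log2 ratios were -1.19 (95% interval -2.05 to -0.32) to palmitate and 0.09 (95% interval -0.78 to 0.95) to untreated cells. The 2 genes past 2-fold were the ones that rose with palmitate, and 10.2% of the genes tested were lower and 9.22% higher by 2-fold or more. These ratios share the palmitate library of experiment 2, so they are not independent of its high values. In the authors' deposited table, the Cuffdiff p-value of both acids against palmitate was 0.0002 for ARRDC4 with a q-value of 0.053, and 0.0279 for TXNIP with a q-value of 0.868. For palmitate against untreated wild-type cells in the same experiment, the Cuffdiff q-values were 0.0944 for ARRDC4 and 0.754 for TXNIP. Each of these compares 1 pooled library with 1 other.

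ARRDC3 was at 13.1 FPKM with both acids, against 20.0 with palmitate and 12.1 in untreated cells, and its log2 ratio to palmitate was -0.58 (95% interval -1.42 to 0.27). ARRDC1 was at 12.9 FPKM with both acids and 13.6 with palmitate (-0.07, 95% interval -1.72 to 1.58), and ARRDC2 at 11.8 and 14.9 FPKM (-0.31, 95% interval -1.58 to 0.96). Against untreated cells, where 1.12% of the genes tested were higher by 2-fold or more and 0.578% lower, none of the 5 genes passed 2-fold with both acids.

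Palmitoleate alone left TXNIP at 166 FPKM against 171 in untreated cells of experiment 1, a log2 ratio of -0.04 (95% interval -0.91 to 0.83), and ARRDC4 at 13.0 against 12.1 FPKM (0.09, 95% interval -0.84 to 1.03). ARRDC3 was at 22.5 FPKM against 17.4 (0.35, 95% interval -0.49 to 1.19). The palmitate library of the same experiment held 276, 40.4 and 32.0 FPKM of TXNIP, ARRDC4 and ARRDC3, given side by side without a comparison because the palmitoleate dose is not stated. ARRDC1 was at 2.94 FPKM with palmitoleate against 10.7 in untreated cells, and ARRDC2 at 4.15 against 9.36. Both passed 2-fold downward, as 6.6% of the genes tested did (0.605% upward), with intervals from -3.22 to 0.08 and from -2.28 to 0.26. The rank correlation with GC content was -0.76 for this ratio, and with the GC trend removed the log2 ratios were -0.82 for ARRDC1, -0.34 for ARRDC2 and -0.04 for ARRDC3.

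With palmitate, ARRDC4 was lower in GPAT4 knockout cells than in wild-type cells, while the intervals of the other 4 genes held 0. ARRDC4 was at 10.7 FPKM in GPAT4 knockout cells with palmitate, against 41.1 in wild-type cells with palmitate, and untreated wild-type cells were at 7.79. The log2 ratio of knockout to wild type was -1.85 (95% interval -2.78 to -0.92), and 8.06% of the genes tested were lower and 7% higher by 2-fold or more. The knockout ratios use the same palmitate library as the ratios of both acids to palmitate, so they are not independent of those or of its high values. TXNIP was at 137 FPKM in knockout cells, against 222 in wild-type cells with palmitate and 91.1 in untreated wild-type cells, and its log2 ratio of -0.69 had an interval that held 0 (-1.55 to 0.18). ARRDC3 was higher in the knockout, at 28.8 FPKM against 20.0 in wild-type cells with palmitate, with an interval that also held 0 (log2 ratio 0.51, -0.34 to 1.35). ARRDC1 was at 12.2 against 13.6 FPKM (-0.15, 95% interval -1.80 to 1.50) and ARRDC2 at 15.1 against 14.9 (0.02, 95% interval -1.25 to 1.29). In the authors' deposited table, the Cuffdiff p-value of knockout against wild type with palmitate was 0.00185 for ARRDC4 with a q-value of 0.231, and 0.194 for TXNIP. Without an untreated knockout library in use, the palmitate response of the knockout cells was not computed.

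ARRDC4 was also higher with palmitate in RNF213 knockdown cells, at 14.8 FPKM with palmitate against 3.79 without, a log2 ratio of 1.72 (95% interval 0.79 to 2.65). It was the 1 gene of the 5 past 2-fold there, where 2.74% of the genes tested were higher and 0.704% lower by that much. TXNIP was at 126 FPKM with palmitate against 76.6 without in knockdown cells (0.71, 95% interval -0.16 to 1.57), and ARRDC3 at 15.0 against 8.997 (0.68, 95% interval -0.17 to 1.52). ARRDC1 was at 5.63 against 6.93 FPKM (-0.26, 95% interval -1.91 to 1.39) and ARRDC2 at 5.75 against 6.81 (-0.21, 95% interval -1.48 to 1.06). In the authors' deposited table, the Cuffdiff p-value of palmitate against untreated for ARRDC4 was 3.69e-06 in knockdown cells and 4.24e-07 in wild-type cells of experiment 3. Each of these p-values sets 1 pooled library against 1 other, without replicates of the condition, and no q-value is given for experiment 3.

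The palmitate response in knockdown cells minus that in wild-type cells was -0.10 for ARRDC4 (95% interval -1.41 to 1.22), -0.22 for TXNIP (-1.44 to 1.00) and 0.14 for ARRDC3 (-1.05 to 1.33) on the log2 scale. For ARRDC1 it was -0.57 (-2.91 to 1.76) and for ARRDC2 -0.32 (-2.11 to 1.48), so all 5 intervals held 0 and were wide. The levels themselves were lower in the knockdown for 3 of the genes with and without palmitate, though every interval held 0. With palmitate, ARRDC4 was at 14.8 FPKM in knockdown cells against 22.5 in wild-type cells (-0.58, 95% interval -1.51 to 0.36), TXNIP at 126 against 160 (-0.35, 95% interval -1.21 to 0.52) and ARRDC3 at 15.0 against 17.6 (-0.22, 95% interval -1.06 to 0.62). Untreated, the ratios were -0.48 for ARRDC4 (-1.41 to 0.45), -0.13 for TXNIP (-0.99 to 0.74) and -0.36 for ARRDC3 (-1.21 to 0.48). ARRDC1 and ARRDC2 went the other way untreated, at 0.48 (-1.17 to 2.13) and 0.20 (-1.07 to 1.47), and were at -0.09 and -0.12 with palmitate. The rank correlation with GC content was 0.63 for the untreated ratio. With the GC trend removed the untreated ratios were -0.43 for ARRDC4, -0.081 for TXNIP, -0.21 for ARRDC3, 0.19 for ARRDC1 and -0.065 for ARRDC2. None of the 5 genes passed 2-fold between knockdown and wild-type cells, with palmitate (0.551% of the genes tested higher, 0.804% lower) or without (0.46% higher, 0.379% lower).

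**Figure D3:**
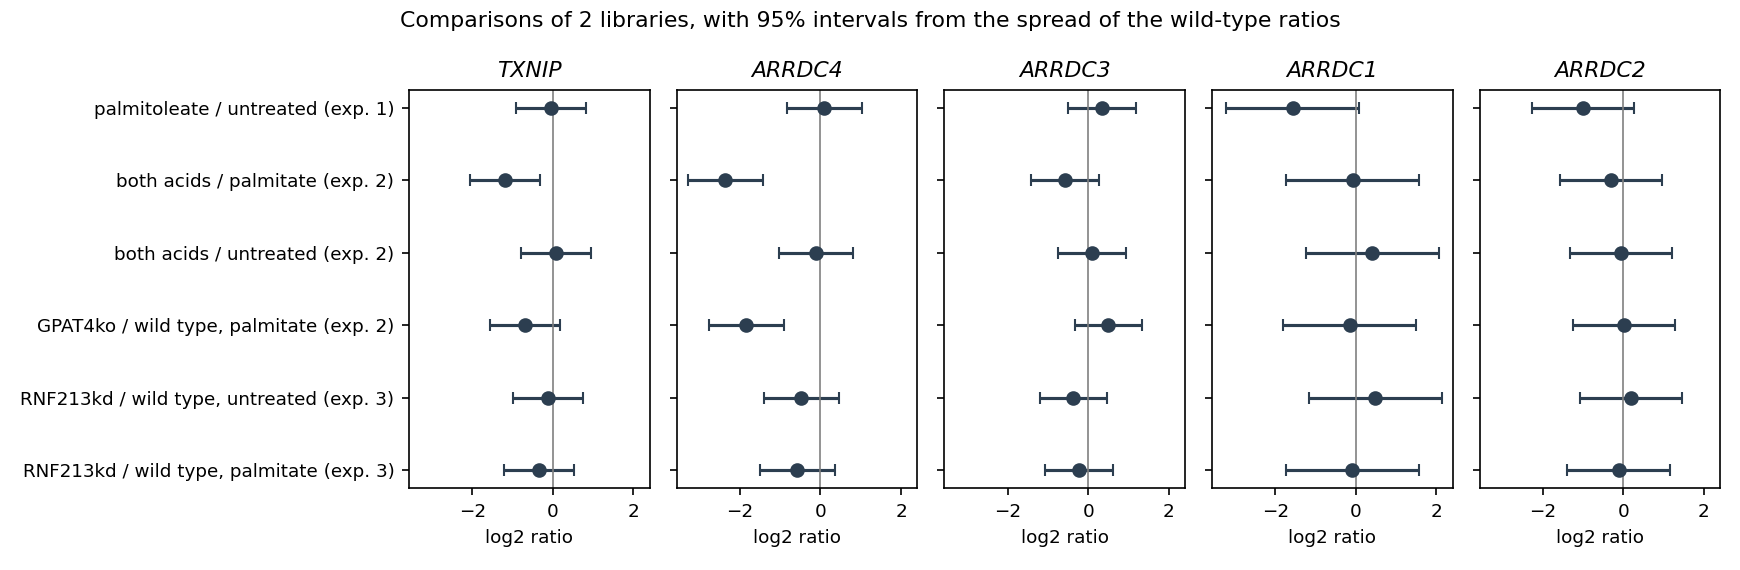
Log2 ratio of (FPKM + 1) between 2 libraries of the same experiment for the 5 genes, with intervals drawn from the spread of the wild-type palmitate ratios between experiments. ARRDC4 lies at -2.37 for both acids against palmitate and at -1.85 for the GPAT4 knockout against wild type with palmitate, and TXNIP at -1.19 for both acids against palmitate.

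Across the 11 libraries, with log2(FPKM + 1) centred within each table, TXNIP and ARRDC4 had a Pearson r of 0.978 and ARRDC1 and ARRDC2 of 0.928. TXNIP and ARRDC3 had an r of 0.776, and ARRDC3 and ARRDC4 of 0.696. The pairs of ARRDC1 or ARRDC2 with TXNIP, ARRDC3 or ARRDC4 ranged from -0.243 (ARRDC1 with ARRDC3) to 0.0168 (ARRDC1 with TXNIP). These values describe libraries that share tables, treatments and base composition and are not independent samples. Among 8078 genes averaging 5 FPKM or more, the patterns most like that of TXNIP were those of PPP1R15A (r = 0.996), PIR (0.994) and CDKN1A (0.992), and ARRDC4 was nearest to IFI16 (0.988), CREM (0.986) and CD58 (0.984). TXNIP stood at rank 17 among the genes nearest to ARRDC4, and ARRDC4 at rank 67 among those nearest to TXNIP. ARRDC3 stood much further down, at rank 1366 for TXNIP and 1676 for ARRDC4. For ARRDC3 the nearest were ZNF134 (0.981), HSD17B4 (0.969) and TSC22D1 (0.966). For ARRDC1 they were WDTC1 (0.984), PITPNM1 (0.975) and FCHO1 (0.973), and for ARRDC2 they were PACS1 (0.981), DAG1 (0.978) and CLCN7 (0.976).

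Genes that act with the arrestin-domain proteins were described from 7 lists of 57 genes, of which 44 were tested for the wild-type palmitate response. Of the 44 genes, 3 were called higher and 1 lower, beside the same 6.59% and 3.84% of all genes tested. The calls among them numbered 11 with the GC trend removed, against 4 in the same genes with the trend kept, 1 in the unpaired fit, 0 without the filter on low values, and 0, 2 and 0 without experiments 1, 2 and 3. Of the regulators, none of the 3 Mondo and MLX transcription factors passed, with a median log2 ratio of -0.35: MLXIPL had 0.83 (limma, adjusted p = 0.236) and MLXIP -0.46 (limma, adjusted p = 0.34).

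In the thioredoxin system, to which TXNIP's partner belongs, 13 of 15 genes were tested, 2 were called higher and 1 lower, and the median was -0.06. TXNRD1, the cytosolic thioredoxin reductase, was at 258, 403 and 191 FPKM in wild-type palmitate cells of experiments 1, 2 and 3, against 85.9, 109 and 85.5 FPKM in untreated wild-type cells (log2 ratio 1.53 ± 0.22 SE, limma adjusted p = 0.0219). SRXN1, which repairs oxidised peroxiredoxins, was at 38.8, 108 and 37.8 FPKM with palmitate and 20.0, 30.9 and 16.1 FPKM without (1.29 ± 0.24, limma adjusted p = 0.0329). PRDX2, a peroxiredoxin abundant in erythroid cells, was lower, at 217, 196 and 153 FPKM with palmitate against 375, 427 and 235 FPKM without (-0.84 ± 0.19, limma adjusted p = 0.0494). All 3 moved in their direction in every experiment. The 8 erythroid markers had a median log2 ratio of -1.35, with 4 called lower, 0 called higher and TFRC at 0.09. Whether a change in erythroid genes had a part in the PRDX2 value was not tested. TXN itself, the thioredoxin that TXNIP binds, did not pass, at 730, 776 and 555 FPKM with palmitate and 423, 419 and 466 FPKM without (0.64, limma adjusted p = 0.0943).

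Among the NEDD4-family ligases and adaptors, the partners of the PPxY motifs, 9 of 11 genes were tested, 1 was called higher and the median was 0.41. NEDD4 was at 35.0, 33.1 and 25.6 FPKM in wild-type palmitate cells, against 7.92, 6.37 and 7.77 FPKM in untreated wild-type cells, a log2 ratio of 1.94 ± 0.22 (SE, limma adjusted p = 0.0154). All 3 palmitate libraries lay above all 3 untreated ones. With both acids NEDD4 was at 12.1 FPKM and in GPAT4 knockout cells with palmitate at 10.2 FPKM, against 33.1 FPKM in wild-type cells with palmitate. Both are set against that same palmitate library, so these differences are not independent.

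None of the other lists held a call. Of 12 ESCRT genes that act with ARRDC1, 11 were tested with a median of 0.28, and TSG101 (0.67, limma adjusted p = 0.0783) and VPS37A (0.65, limma adjusted p = 0.0802) had the largest ratios. Of 8 arrestin-fold relatives, 5 were tested with a median of -0.34, led by the retromer gene VPS26B (-0.72, limma adjusted p = 0.103) and beta-arrestin ARRB2 (-0.51, limma adjusted p = 0.249), and ARRDC5, the remaining arrestin-domain gene, was listed at 0 in all 11 libraries. Of 6 genes for TXNIP cargo and the inflammasome, 3 were tested with a median of -0.16. SLC2A3, a glucose transporter, was at 81.4, 81.0 and 65.6 FPKM with palmitate against 46.1, 39.2 and 42.2 FPKM without (0.82 ± 0.20, limma adjusted p = 0.053), and SLC2A1, the glucose transporter known as TXNIP cargo, was at 13.5, 45.6 and 15.6 FPKM against 34.7, 62.7 and 21.5 FPKM (-0.73 ± 0.25, limma adjusted p = 0.11). The inflammasome genes NLRP3, CASP1 and IL1B were at or under 0.52, 0.0441 and 0.0767 FPKM and were not tested. PYCARD, the other inflammasome gene listed, was at 1.24 to 6.53 FPKM and did not pass (-0.16, limma adjusted p = 0.651). ITGB4, the integrin beta-4 gene listed as ARRDC3 cargo, was not tested, at or under 0.193 FPKM.

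**Figure D4:**
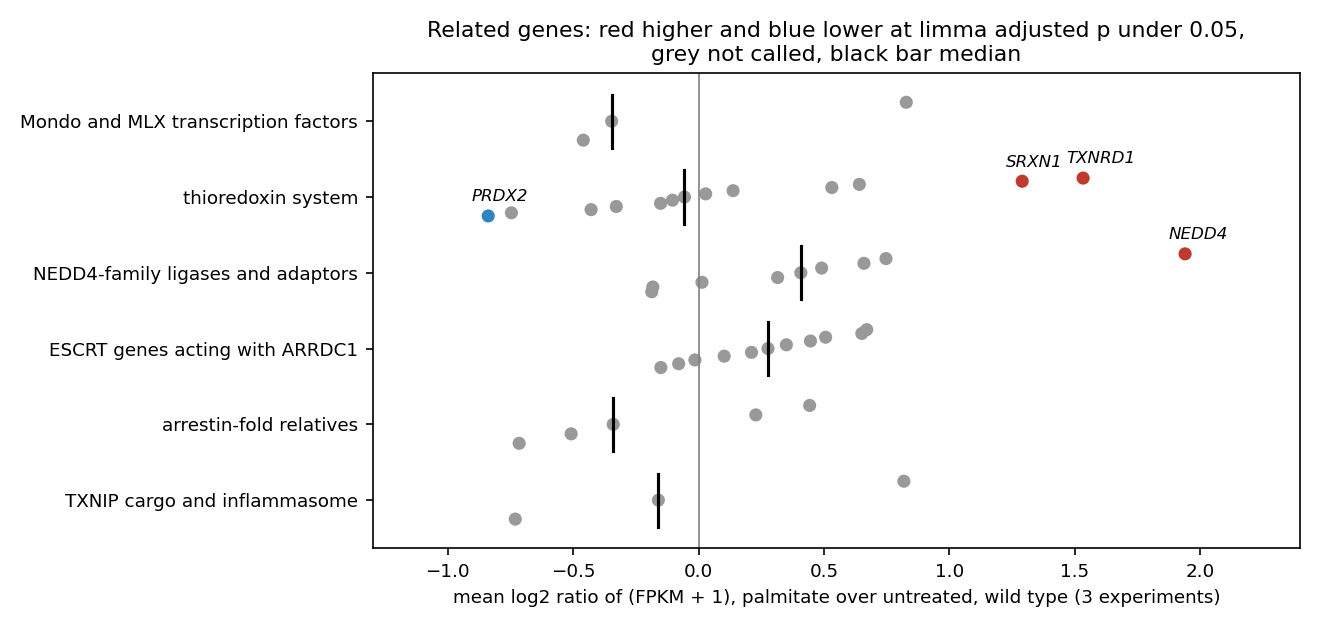
Mean log2 ratio of (FPKM + 1), palmitate over untreated wild-type cells in 3 experiments, for the 44 related genes tested, 1 point per gene, with a black bar at each list's median. NEDD4, TXNRD1 and SRXN1 lie on the right at 1.94, 1.53 and 1.29, and PRDX2 on the left at -0.84.

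In the files' hg19 coordinates TXNIP spans chr1:145438461-145442628 and ARRDC4 spans chr15:98503932-98517068, both on the plus strand, and the GRCh37 annotation places no other gene over either. ARRDC3, at chr5:90664540-90716532 on the minus strand, overlaps the antisense gene ARRDC3-AS1, and ARRDC2, at chr19:18111943-18124911 on the plus strand, overlaps 1 antisense transcript without a name. ARRDC1, at chr9:140500095-140513308 on the plus strand, overlaps the antisense gene ARRDC1-AS1, listed as C9orf37, and a long non-coding RNA gene without a name on its own strand. Overlaps were sought within the span that the GRCh37 annotation gives each gene. That span is shorter for ARRDC3 (90664448-90679134) and ends at 140509812 for ARRDC1, and the rest of the coordinates above was not searched. C9orf37 was at 11.7, 21.4 and 13.5 FPKM in wild-type palmitate cells of experiments 1, 2 and 3, against 14.2, 23.4 and 12.8 FPKM in untreated wild-type cells. The library kit kept strand, but the strand setting of the counting is not given in the sources used here, so the values of ARRDC1, ARRDC2 and ARRDC3 may share reads with these partners, and those of ARRDC1 with the gene on its own strand whatever that setting was.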

How the data were processed

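RNA was prepared with the TruSeq Stranded mRNA kit after pooling 3 biological replicates per library, per the labels. Reads were mapped to hg19 with TopHat2 and quantified with Cuffdiff, per the submitters' processing notes, whose versions are not given in the sources used here. The deposited FPKM values were read from the authors' Cuffdiff tables (23282, 23287 and 23260 genes in experiments 1, 2 and 3), and 2 columns of libraries that the labels do not name were not used. The authors' deposited p-values and q-values are quoted only where named. Each compares 1 pooled library with 1 other, so none of them measures the spread between experiments. Ratios of log2(FPKM + 1) were taken within 1 table. The 23153 shared genes were reduced to 11075 with a mean of at least 1 FPKM, and limma 3.58.1 in R 4.3.3 tested the mean of the 3 wild-type palmitate ratios (trended variance, Benjamini-Hochberg adjustment). The ratio itself is the pairing by experiment: deviations of libraries of the same experiment correlated at 0.458, 0.634 and 0.696, against -0.526 to 0.0106 between experiments. The deviations are from the mean of 3 libraries, which pushes the values between experiments below 0, so those are no separate check of the pairing. Nothing separates the pooled cultures, so the limma p-values measure the spread between experiments only. GC content came from the longest GRCh37 transcript, for 87% of the genes tested. The fit was tested on simulated data. Alternatives were another pseudocount, filters, centring, the GC trend (and its genes alone), the unpaired fit and leaving out each experiment. The 5 genes and the lists of related genes were chosen with earlier results of these data known. Related genes are named where called, or else as the list's 2 largest ratios. TXN, ARRDC5 and PYCARD, and the untested genes given with their highest FPKM, were added after their values were seen.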

Additional observations from a re-analysis of the deposited data

How the results depend on the processing

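Over all genes tested, 730 were called higher and 425 lower with palmitate. Without the filter on low values 0 and 0 were called (limma; 3905 at an unadjusted p under 0.05), and without small RNA genes 1233 and 1206. With the GC trend removed, in the fit with the replicate block on the 9637 genes with a GC value, 1475 and 1205 were called. The same 9637 genes with the trend kept, an alternative chosen after seeing the data, gave 661 and 429. The unpaired fit, with no replicate block, called 258 higher and 51 lower. Leaving out each experiment gave 0 to 599 higher and 0 to 291 lower. With 2 experiments left, 1 degree of freedom remains, and 0 were called without experiment 1 (4474 at an unadjusted p under 0.05) and without experiment 3 (2330). Without experiment 2, where 599 and 291 were called, limma took each gene's spread wholly from the trend over all genes. The TXNIP ratio was not past the threshold without the filter (0.96, adjusted p = 0.234) or with no replicate block (0.96, adjusted p = 0.161), and lay between 0.81 and 1.10 on leaving out each experiment. It was called in 7 of 12 alternatives. ARRDC4 was called in 9 of 12. It was not called without the filter (1.91, adjusted p = 0.234), and it lay between 1.74 and 2.04 on leaving out each experiment. Pairing changed no call of ARRDC4 (adjusted p = 0.0472 with no replicate block). ARRDC3 passed with the GC trend removed (0.59). ARRDC1 turned to 0.14 and ARRDC2 to 0.039 with the GC trend removed, and without 1 experiment they ranged from -0.51 to 0.40 and from -0.44 to 0.18. Calls among the related genes numbered 4, and 0 without the filter, 1 with no replicate block, 11 with the GC trend removed (4 in the same genes with it kept), and 0 to 2 on leaving out each experiment. Of 105 ratios of 2 libraries under alternatives, 102 moved by less than the spread used for their intervals, as did 15 differences between the knockdown and wild-type responses. The other 3 were for palmitoleate with the GC trend removed: ARRDC1 to -0.82, ARRDC2 to -0.34 and ARRDC3 to -0.045. Where no cause is given above, the cause was not tested. Without read totals, the counting error behind the low FPKM of ARRDC1 and ARRDC2 is unknown.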
